A study of Rattus norvegicus with 32 samples.

Results

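The transcripts of 6 inhibitors of cyclin-dependent kinases (CDKs), Cdkn1a, Cdkn1b, Cdkn1c, Cdkn2a, Cdkn2b and Cdkn2c, and of 3 genes of the p53 and growth-arrest response, Mdm2, Gadd45a and Gadd45b, were followed in liver sinusoidal endothelial cells (LSECs) isolated from rats. These 9 genes were taken by their symbols from the 32623 genes of each library, and each had 1 entry. LSECs are the fenestrated, scavenging endothelium of the liver sinusoid. The libraries of the carbon tetrachloride (CCl4) experiment came from male Wistar Han rats that were healthy and untreated (n = 6) or inhaled CCl4 for 2 weeks (acute injury, n = 5), for 6 weeks (fibrosis, n = 5) or for 12 to 14 weeks (cirrhosis, n = 6). CCl4-treated rats drank water with phenobarbital, and the sources used here do not say whether healthy rats did. The labels of the cirrhotic libraries state CCl4 treatment but no duration, which was taken from the design of the study. In a separate thioacetamide (TAA) experiment, TAA or saline was injected intraperitoneally for 12 weeks. Its libraries are labelled control (n = 5) and TAA control (n = 5), which does not settle which group received the toxicant, and the labels give Wistar Han where the design text gives Sprague-Dawley. The 2 groups are therefore named by their labels. The study describes the libraries of a group as separate cell isolations. The ages of the rats were not given in the sources used here.

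CDK inhibitors stop the cell cycle before DNA replication. The CIP/KIP proteins p21 (Cdkn1a), p27 (Cdkn1b) and p57 (Cdkn1c) bind cyclin-CDK complexes, mainly those of CDK2, whereas the INK4 proteins p16 (Cdkn2a), p15 (Cdkn2b) and p18 (Cdkn2c) bind CDK4 and CDK6 alone and keep the retinoblastoma protein active. Cdkn2a also encodes Arf, which blocks Mdm2, the ubiquitin ligase that degrades p53. The transcription factor p53 induces Cdkn1a, Gadd45a and Mdm2 itself, the latter closing a feedback loop. GADD45 proteins bind PCNA and the kinase MEKK4, which activates p38. In the quiescent endothelium CDK inhibitors accompany arrest, and Cdkn1a and Cdkn2a are widely read as marks of senescence.

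Promoter sequences are shown for Cdkn2b, which had the largest changes, for Gadd45a and Gadd45b, which moved in opposite directions, and for Cdkn1a, the classical p53 target. They are the 250 bases before the start of each gene in RefSeq (GRCr8, a later build than that used for mapping), read 5′ to 3′ on the strand of the gene. Capitals mark matches to TGACGTCA (the cAMP response element), TATAA and the p53 decamer, the consensus that p53 binds in tandem, searched on both strands.
Cdkn1a, chr20:7150682-7150931, plus strand: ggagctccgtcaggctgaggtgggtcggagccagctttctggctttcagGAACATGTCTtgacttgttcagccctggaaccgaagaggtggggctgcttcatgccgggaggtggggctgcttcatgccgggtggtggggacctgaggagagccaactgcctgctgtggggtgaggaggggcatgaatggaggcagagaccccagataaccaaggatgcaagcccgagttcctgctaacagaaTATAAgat
Cdkn2b, chr5:109134856-109135105, minus strand: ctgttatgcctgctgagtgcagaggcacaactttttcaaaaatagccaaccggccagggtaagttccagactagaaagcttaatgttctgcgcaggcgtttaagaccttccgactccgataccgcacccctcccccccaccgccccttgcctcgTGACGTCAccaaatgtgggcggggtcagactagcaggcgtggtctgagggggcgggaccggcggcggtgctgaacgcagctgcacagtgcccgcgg
Gadd45a, chr4:97486800-97487049, minus strand: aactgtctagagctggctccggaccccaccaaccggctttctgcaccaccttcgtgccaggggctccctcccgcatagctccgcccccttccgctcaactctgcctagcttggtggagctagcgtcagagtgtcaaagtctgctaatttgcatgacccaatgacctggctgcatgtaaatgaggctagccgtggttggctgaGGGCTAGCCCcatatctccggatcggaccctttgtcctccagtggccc
Gadd45b, chr7:9430719-9430968, minus strand: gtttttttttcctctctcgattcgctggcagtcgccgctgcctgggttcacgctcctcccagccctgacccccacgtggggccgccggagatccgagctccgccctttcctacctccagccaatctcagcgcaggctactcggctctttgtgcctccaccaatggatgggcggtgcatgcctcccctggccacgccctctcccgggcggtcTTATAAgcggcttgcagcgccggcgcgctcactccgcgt
In Gadd45b the capitals cover 2 overlapping matches of TATAA, on opposite strands. Of the 33469 RefSeq promoter windows of this length, 1.59% held TGACGTCA, 24% held TATAA and 6.64% held a p53 decamer. A p53 decamer was also found in the window of Cdkn2c but not in those of Cdkn1b, Cdkn2a, Cdkn2b, Mdm2 and Gadd45b. TGANTCA, the AP-1 element, was in 6.34% of all windows and in none of the 8 member windows. No entry was held for Cdkn1c. These matches are descriptions of letters in a short window and were not tested for binding.

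The library totals ranged from 25.6 M to 46.5 M expected counts (M, mega). The cell-type label was checked with 11 LSEC markers. Their summed level was 16838 to 30937 CPM (counts scaled to a fixed library total) in healthy and 16824 to 21511 in cirrhotic libraries, but 3905 to 4666 in acute and 2709.6 to 3820.1 in fibrosis libraries. Of these markers 9 were lower in acute than in healthy LSECs, among them Stab2, and the endothelial Cdh5 was not called. Most hepatocyte, Kupffer cell and lymphocyte markers were also lower in the acute and fibrosis libraries. Transcripts of 14 immediate-early and dissociation-stress genes summed to 47585 to 79436 CPM in healthy, 1529 to 4895 in acute, 4397 to 7062 in fibrosis and 23079 to 50025 in cirrhotic libraries. The acute and fibrosis libraries thus stood apart from the healthy and cirrhotic ones in markers of cell type and of handling, and the part of these differences in the results below was not tested. In bulk samples, fewer cells of a type and less RNA per cell cannot be told apart.

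Levels are given as CPM with TMM factors over all 32 libraries. Differences are log2 fold changes ± SE from limma-voom fits of the 2 groups compared, and a gene was called at a Benjamini-Hochberg adjusted p-value under 0.05 over all genes tested and a fold change above 1.5. By this rule 3 members rose and 4 fell of the 8 tested in acute LSECs compared with healthy, where 73.4% of all genes were called, 35.5% of them higher and 37.9% lower as shares of the genes tested. In fibrosis 4 rose and 4 fell of 9, 1 of those that rose being Cdkn2a, which passed the low-count filter there through the fibrosis libraries alone, beside 70.2% of all genes (35.3% higher, 34.9% lower). In cirrhosis 2 rose and 3 fell of 8, beside 51.8% of all genes (27.1% higher, 24.7% lower). The share of members called was thus near that of genes at large, and the direction and size for each gene are what the data add. The median log2 fold change of the tested members was -0.81, -0.23 and 0.23 at the 3 stages, beside -0.09, -0.03 and 0.07 over all genes tested. The groups did not overlap for 6 of the 8 members tested in acute, where 59.8% of all genes did not overlap (29.1% higher, 30.7% lower). They did not overlap for 8 of 9, Cdkn2a included, in fibrosis beside 58.5% of all genes (29.4% higher, 29.1% lower), and for 3 of 8 in cirrhosis beside 27.2% (11.7% higher, 15.5% lower). The 3 comparisons share the healthy libraries. Of all genes called, 48.4% were higher in acute, 50.3% in fibrosis and 52.2% in cirrhosis, and scaling by library size alone gave 58.2%, 60.9% and 71.3%.

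**Figure D1:**
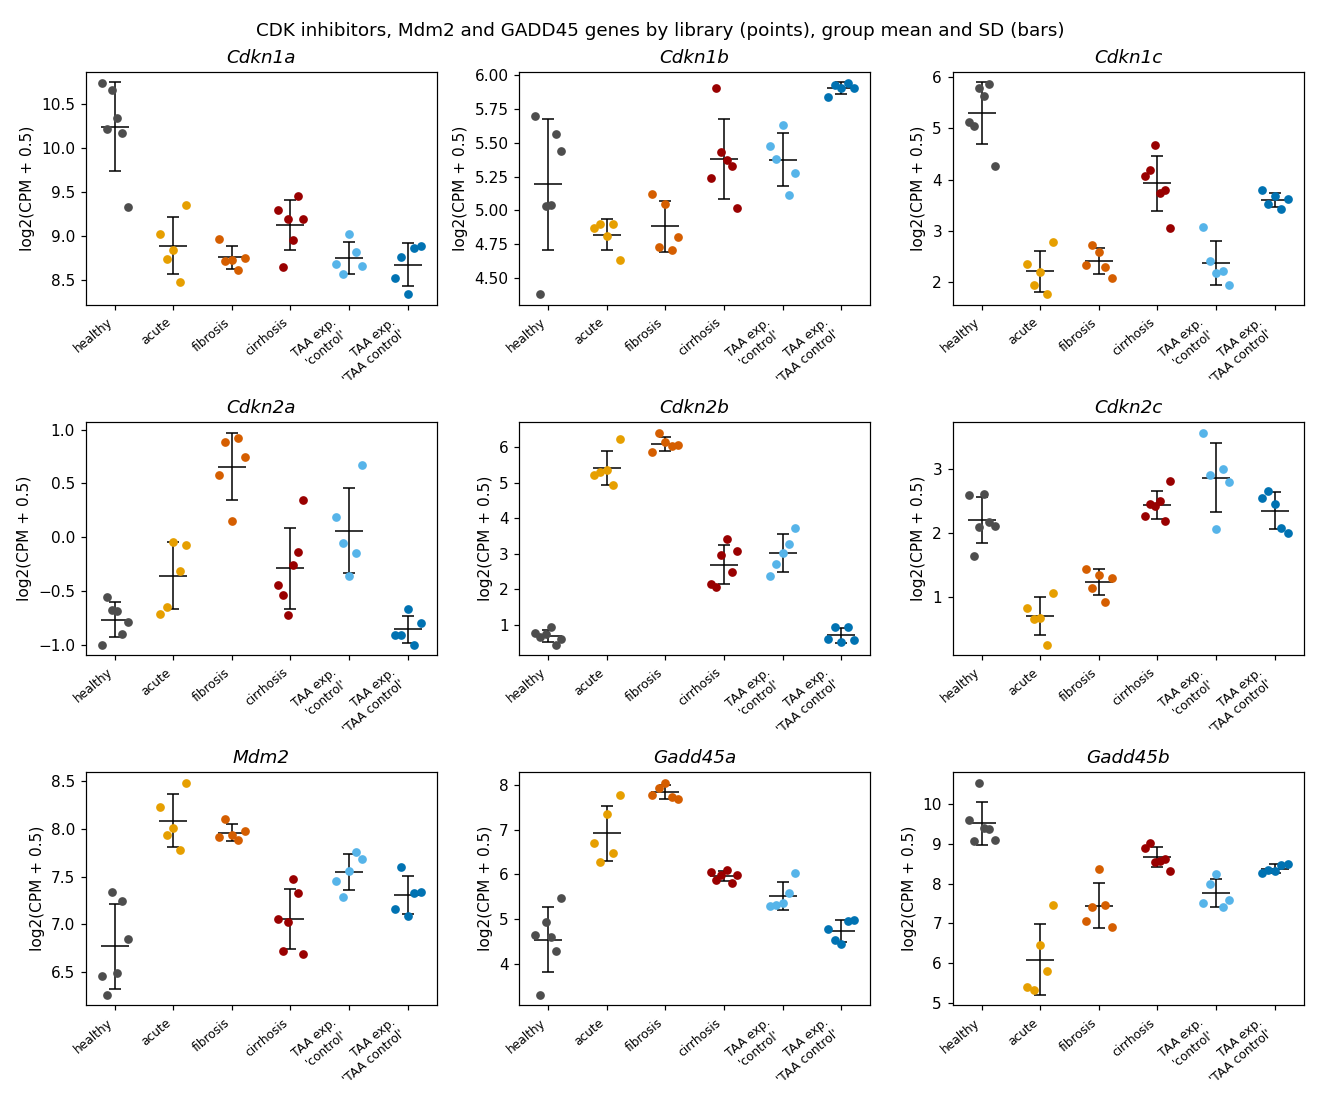
Expression of the 9 genes in every library, as log2(CPM + 0.5), with the healthy, acute, fibrosis and cirrhosis groups of the CCl4 experiment and the 2 labelled groups of the TAA experiment on the horizontal axis. Points are libraries and bars are the group mean and SD, and each panel has its own axis range. Cdkn2b and Gadd45a sit highest in fibrosis, while Cdkn1a, Cdkn1c and Gadd45b sit highest in healthy LSECs.

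Among the CIP/KIP genes, Cdkn1a and Cdkn1c were down-regulated at all 3 stages and Cdkn1b was called in none. Cdkn1a (ENSRNOG00000000521), which encodes p21, ranged from 644 to 1699 CPM in healthy LSECs with a median of 1241. In acute libraries, replicates 1, 2, 3, 4 and 8, it was at 523, 428, 461, 358 and 656 CPM. Fibrosis replicates 12, 13, 15, 16 and 17 were at 502, 422, 426, 393 and 429.7 CPM, and cirrhotic libraries ranged from 403 to 701 with a median of 585. Healthy replicate 6 was low at 644 CPM and overlapped with the acute and cirrhotic groups, whereas every fibrosis library lay below every healthy one. The log2 fold change against healthy was -1.29 ± 0.24 in acute (adjusted p = 0.000325), -1.39 ± 0.21 in fibrosis (adjusted p = 8.03e-05) and -1.12 ± 0.23 in cirrhosis (adjusted p = 0.00141), that is 2.45-, 2.62- and 2.17-fold lower. The injured groups did not separate from each other by the call rule. The difference between fibrosis and acute was -0.05 (95% CI -0.37 to 0.26), and that between cirrhosis and fibrosis was 0.33 (95% CI 0.04 to 0.63, adjusted p = 0.0405), below the fold threshold. In the separate TAA experiment Cdkn1a was at 380 to 521 CPM in libraries labelled control and 324 to 475 in those labelled TAA control. Both groups lay below the lowest healthy library of the CCl4 experiment, and the 2 experiments were not tested against each other.

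Cdkn1c, coding for the imprinted p57, showed the largest fall of the 3 CIP/KIP genes in acute LSECs. Healthy libraries ranged from 18.8 to 58.0 CPM with a median of 41.9. The acute libraries, in the order given above, were at 4.62, 3.37, 4.09, 2.90 and 6.43 CPM. Those of fibrosis were at 4.58, 6.13, 5.49, 4.45 and 3.75 CPM. All of these lay below the lowest healthy library. In cirrhosis the range was 7.88 to 25.2 CPM with a median of 15, above every acute and fibrosis library but overlapping with healthy. The fall was 9.06-fold in acute (log2 fold change -3.18 ± 0.34, adjusted p = 3.49e-06), 7.49-fold in fibrosis (-2.91 ± 0.31, adjusted p = 4.74e-06) and 2.62-fold in cirrhosis (-1.39 ± 0.31, adjusted p = 0.00248). Cirrhotic LSECs had 2.98-fold more Cdkn1c than fibrotic ones (1.58 ± 0.30, adjusted p = 0.000462), and fibrosis did not differ by the test from acute injury (0.33, 95% CI -0.16 to 0.81).

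Cdkn1b, whose product p27 holds quiescent cells in arrest, showed no called difference from healthy LSECs, whose libraries spread widely. It ranged from 20.3 to 51.4 CPM in healthy libraries with a median of 37.6, and from 31.9 to 59.6 in cirrhotic ones with a median of 40.3. Acute libraries were at 28.7, 29.4, 27.6, 29.3 and 24.3 CPM, and fibrosis libraries at 34.3, 26.0, 32.6, 25.7 and 27.4 CPM. Every acute and fibrosis library lay within the healthy range. The log2 fold changes against healthy were -0.32 (95% CI -0.82 to 0.17), -0.23 (95% CI -0.74 to 0.28) and 0.19 (95% CI -0.29 to 0.67) from acute to cirrhosis. The first 2 were positive when only library size was used for scaling. Cirrhotic exceeded acute LSECs by 0.54 ± 0.14 (adjusted p = 0.00297), 1.46-fold and thus just under the fold threshold. This Cdkn1b difference passed the call rule with DESeq2 (0.62), without the low-count filter (0.62), with upper-quartile factors (0.73), with the replicate block (0.60) and without cirrhosis replicate 1 (0.59) or 6 (0.63).

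Within the INK4 genes, Cdkn2b rose, Cdkn2c fell in acute and fibrosis, and Cdkn2a was close to the limit of detection. Cdkn2b, coding for p15, a known target of TGF-beta signalling, had the largest change of the 9 genes. Healthy libraries held 24 to 39 counts of it, 0.857 to 1.43 CPM with a median of 1.12. In acute injury it was at 36.8, 39.4, 40.5, 30.3 and 74.6 CPM. Fibrosis libraries were at 58.0, 84.9, 70.0, 65.5 and 66.0 CPM. No library of these groups came near the healthy range, and acute replicate 8 stood above the other acute libraries and within the range of fibrosis. Cirrhotic libraries ranged from 3.66 to 10.2 CPM with a median of 6.19, between the healthy and acute groups and without overlap with either. The gene, whose window with the TGACGTCA match is printed above, was 38.7-fold higher in acute (5.27 ± 0.32, adjusted p = 3.60e-08), 64.7-fold higher in fibrosis (6.02 ± 0.20, adjusted p = 1.81e-09) and 5.28-fold higher in cirrhosis (2.40 ± 0.33, adjusted p = 0.000158). It fell 11.9-fold from fibrosis to cirrhosis (-3.57 ± 0.23, adjusted p = 3.16e-08).

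Cdkn2a lies next to Cdkn2b, and its entry sums the p16 and Arf transcripts, which cannot be separated here. Counts were 0 to 5 per healthy library, 4 to 17 in acute, 18 to 48 in fibrosis and 4 to 31 in cirrhotic libraries. On the CPM scale the healthy libraries ranged from 0 to 0.179. Acute libraries were at 0.110, 0.138, 0.470, 0.304 and 0.450 CPM and fibrosis libraries at 0.996, 1.35, 0.607, 1.40 and 1.18 CPM. Cirrhotic libraries ranged from 0.105 to 0.768 with a median of 0.286. Fibrosis lay above every healthy and acute library, and cirrhotic replicate 6 reached into its range. The gene passed the low-count filter in 4 of the 6 CCl4 comparisons and was not tested in acute or cirrhosis against healthy. In fibrosis against healthy it passed through the fibrosis libraries alone and so had to differ, and these levels are given as a description without a test. In fibrosis against acute injury and in cirrhosis against fibrosis the gene also needed the fibrosis libraries to pass the filter. Both comparisons are likewise given as levels without a test. The difference between cirrhosis and acute was 0.14 (95% CI -1.02 to 1.30).

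Cdkn2c, coding for p18, was low throughout, with 30 to 263 counts in a library of the CCl4 experiment. Healthy libraries ranged from 2.65 to 5.62 CPM with a median of 3.91. Acute libraries were at 1.29, 1.08, 1.10, 0.702 and 1.61 CPM, and fibrosis libraries at 2.22, 1.72, 2.06, 1.40 and 1.98 CPM. Both groups lay wholly below healthy. In cirrhosis the range was 4.06 to 6.52 CPM with a median of 4.94, in and just above the healthy range. The gene fell 3.55-fold in acute (-1.83 ± 0.30, adjusted p = 0.000117) and 2.07-fold in fibrosis (-1.05 ± 0.25, adjusted p = 0.00221). The cirrhotic level was 2.58-fold above that of fibrosis (1.37 ± 0.18, adjusted p = 2.22e-05) and differed from healthy by 0.27 (95% CI -0.18 to 0.71). Scaling by library size alone gave 0.60 in that last comparison (adjusted p = 0.0214), which passed the call rule.

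**Figure D2:**
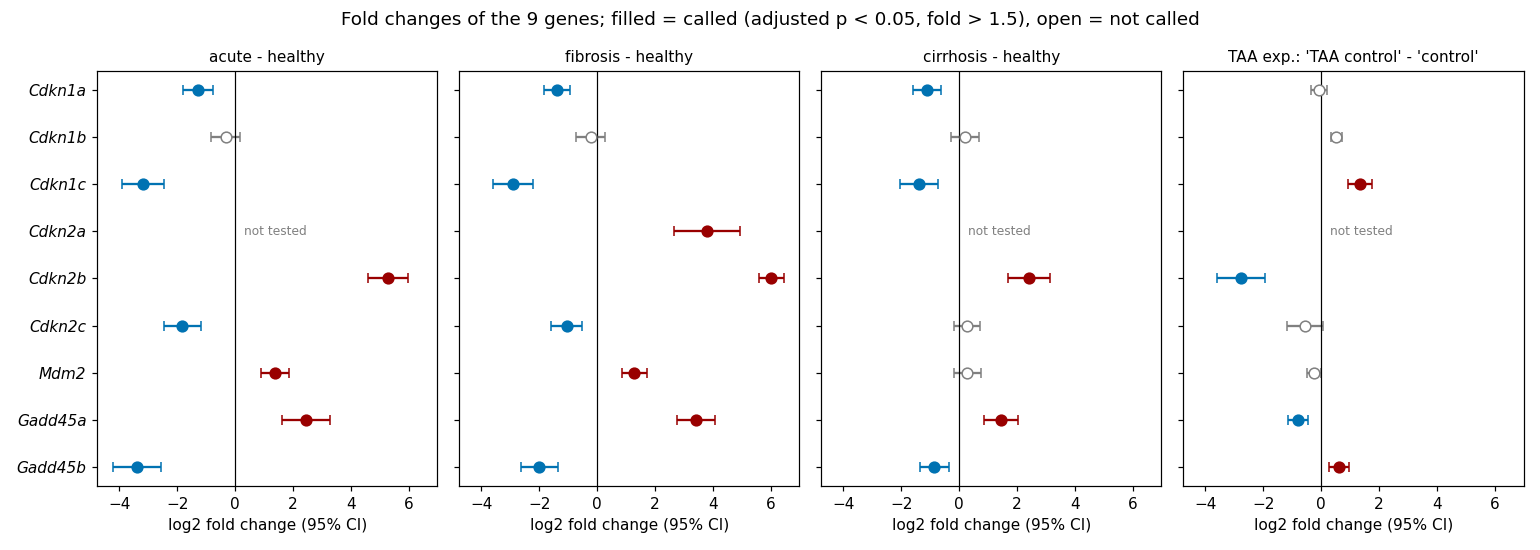
Log2 fold changes with 95% confidence intervals (horizontal axis) of the 9 genes (vertical axis) in acute, fibrosis and cirrhosis against healthy LSECs, and in the TAA experiment as the group labelled TAA control minus that labelled control. Filled points passed the call rule (red higher, blue lower), and open points did not. Cdkn2b has the largest fold change in each of the 4 panels.

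Mdm2 was up-regulated in acute injury and fibrosis but not in cirrhosis. It ranged from 76.4 to 161 CPM in healthy libraries, with a median of 102. With acute injury it was at 299, 244, 257, 219 and 357 CPM, fibrosis libraries at 240.0, 274, 243, 236 and 252 CPM. The lowest of these 10 libraries exceeded the highest healthy and the highest cirrhotic library. Cirrhosis ranged from 103 to 178 CPM with a median of 131. The rise was 2.59-fold in acute (1.37 ± 0.22, adjusted p = 0.000112) and 2.44-fold in fibrosis (1.28 ± 0.20, adjusted p = 8.82e-05). From fibrosis to cirrhosis the gene fell 1.93-fold (-0.95 ± 0.14, adjusted p = 4.73e-05), and cirrhosis differed from healthy by 0.28 (95% CI -0.18 to 0.74). With library-size scaling the latter was 0.62 and passed the call rule (adjusted p = 0.0208).

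Mdm4, the inhibitory partner of Mdm2, was at 47.1 to 63.3 CPM in acute and 4.40 to 19.1 in healthy libraries, a rise of 2.56 ± 0.33 (adjusted p = 1.99e-05). Of the 10 regulators of p53 in the files, 7 rose and 1 fell in acute, 7 rose and 1 fell in fibrosis, and 4 rose and 1 fell in cirrhosis. Over all genes 35.5%, 35.3% and 27.1% were higher at these stages and 37.9%, 34.9% and 24.7% lower. The largest rise among the regulators was that of Atr, a kinase activated by stalled replication, with 4.23 ± 0.41 in acute and 3.86 ± 0.42 in fibrosis. Cop1 (Rfwd2 in the files), another ubiquitin ligase of p53, rose by 1.77 ± 0.23 in acute and 1.81 ± 0.22 in fibrosis.

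Other genes known to be induced by p53 rose and fell at every stage. Of 28 listed targets beside the members, 27 were in the files and tested. In acute LSECs 14 rose and 8 fell, in fibrosis 15 rose and 6 fell, and in cirrhosis 6 rose and 7 fell. Over all genes 35.5%, 35.3% and 27.1% were higher and 37.9%, 34.9% and 24.7% lower. The number called in both directions together was thus near that of genes at large. In acute and fibrosis more of these targets were higher than lower, unlike genes at large, which were split about evenly. Their median log2 fold change was 0.86, 0.80 and 0.15, beside -0.09, -0.03 and 0.07 over all genes. Eda2r, a death receptor of the TNF receptor family, was at a mean of 0.182 CPM in healthy, where it had 2 to 14 counts per library. Its mean was 10.7 CPM in acute and 8.63 in fibrosis. It is counted among the higher at each stage but needed the injured libraries to pass the low-count filter. Its call is thus no support, and its levels are given without a test. Aen, an apoptotic exonuclease, rose from 10.3 to 267 and 204 CPM (4.79 ± 0.20 and 4.43 ± 0.20). In the other direction Btg2, an antiproliferative gene that is also an immediate-early gene, fell from 4255 to 169 and 148 CPM (-4.60 ± 0.26 and -4.71 ± 0.21). Thus Cdkn1a fell with Btg2 while Mdm2 and Gadd45a rose with Aen, within the same libraries. In cirrhosis Eda2r was at a mean of 0.890 CPM, again without a test. Pmaip1, coding for the BH3-only protein Noxa, was higher in cirrhosis than in healthy (1.55 ± 0.33). Phlda3, an inhibitor of Akt, was lower (-1.49 ± 0.44) although it had risen at the earlier stages. Aen returned to a mean of 11.6 CPM in cirrhosis.

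**Figure D3:**
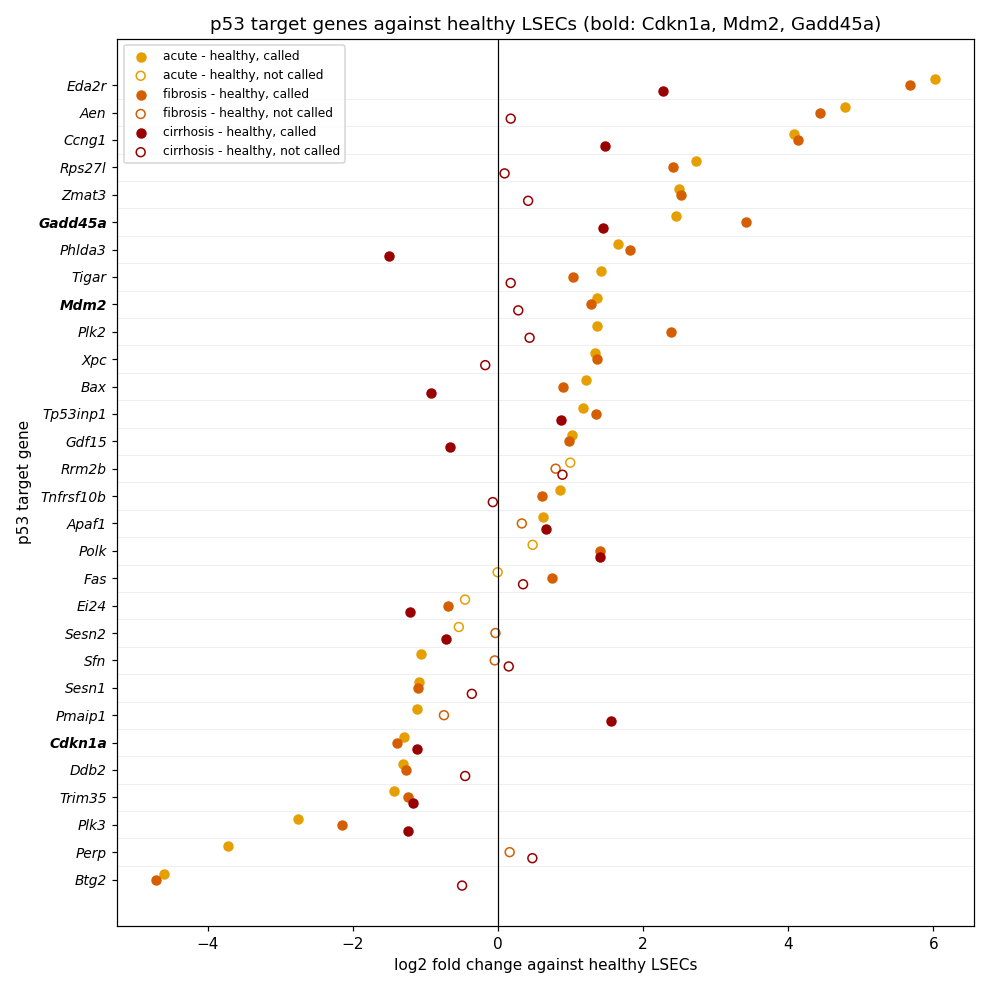
Log2 fold change against healthy LSECs (horizontal axis) of 27 further p53 target genes and the members Cdkn1a, Mdm2 and Gadd45a (bold) at each stage, ordered by the value in acute injury. Filled points passed the call rule and open points did not, and all comparisons share the healthy libraries. Eda2r and Aen lie at the upper end and Btg2 at the lower end in acute injury, with Cdkn1a on the lower side. Eda2r needed the injured libraries to pass the low-count filter, so its points are no support.

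The GADD45 genes moved in opposite directions. Gadd45a, induced by p53 and by genotoxic stress, ranged from 9.40 to 43.6 CPM in healthy libraries with a median of 24.1. In acute injury it reached 103, 77.4, 163, 88.9 and 218 CPM. Fibrosis libraries were at 219.6, 246, 265, 211 and 205 CPM. Cirrhosis was narrow, from 55.2 to 67.8 CPM with a median of 62.9. Healthy, cirrhotic and acute libraries followed each other without overlap, and acute replicate 8 reached the level of fibrosis. Gadd45a was 5.47-fold higher in acute (2.45 ± 0.38, adjusted p = 8.47e-05), 10.7-fold in fibrosis (3.41 ± 0.31, adjusted p = 1.06e-06) and 2.72-fold in cirrhosis (1.44 ± 0.28, adjusted p = 0.000976) than in healthy LSECs. Its fall from fibrosis to cirrhosis was 3.78-fold (-1.92 ± 0.09, adjusted p = 2.31e-09).

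Gadd45b, an early response gene of NF-kappaB and TGF-beta signalling, was highest in healthy LSECs. It ranged there from 543 to 1490.3 CPM with a median of 674, and healthy replicate 3 stood above the rest of its group. Acute libraries were at 41.7, 39.7, 87.8, 55 and 175 CPM and fibrosis libraries at 132, 170.1, 328, 176 and 119 CPM. Cirrhosis ranged from 319 to 519 CPM with a median of 386. Each injured group lay below the lowest healthy library, although cirrhosis came close to it. The fall was 10.5-fold in acute (-3.40 ± 0.38, adjusted p = 6.16e-06), 3.98-fold in fibrosis (-1.99 ± 0.30, adjusted p = 6.99e-05) and 1.82-fold in cirrhosis (-0.86 ± 0.23, adjusted p = 0.0073). With library-size scaling the cirrhotic difference was -0.51 (adjusted p = 0.0353), below the fold threshold.

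The family member Gadd45g had the same direction as Gadd45b and a larger fall, from a mean of 1810.2 CPM in healthy to 47.1 in acute (-5.96 ± 0.63) and 181 in fibrosis (-3.34 ± 0.32). Of the 6 partners of the GADD45 proteins, Gadd45g included, 5 fell and 1 rose both in acute and in fibrosis. Over all genes 37.9%, 34.9% and 24.7% were lower than in healthy from acute to cirrhosis, and 35.5%, 35.3% and 27.1% higher. Among the partners Mapk14, coding for the p38 kinase, fell by 1.46 ± 0.13 and by 1.69 ± 0.13, and its activator Map2k6 fell by 3.55 ± 0.29 and by 2.81 ± 0.24. The immediate-early and dissociation-stress genes moved in the direction of Gadd45b. All 14 fell in acute, 13 in fibrosis and 8 in cirrhosis compared with healthy, led by Fosb with -9.83 ± 0.41 in acute. In the 10 acute and fibrosis libraries, where the immediate-early total was low, Gadd45b was at 39.7 to 328 CPM, compared with 319 to 1490.3 in healthy and cirrhotic libraries, fibrosis replicate 15 lying above cirrhosis replicate 6. The libraries labelled control in the TAA experiment had a higher immediate-early total and Gadd45b at 170.0 to 303 CPM, within the range of fibrosis. Within the acute group, replicates 3 and 8 had the highest immediate-early totals and also the highest Gadd45a and Gadd45b. Cirrhosis replicate 2 likewise had the highest total and the highest Gadd45b of its group. Fibrosis replicate 15 had the highest total and the highest Gadd45a and Gadd45b of its group. Replicates 14 and 15 labelled TAA control, the most alike libraries, had the highest totals, Gadd45a and Gadd45b of theirs. Replicate 3 labelled control had the highest total and the highest Gadd45b of its group. Other values did not follow the total. Cirrhosis replicate 2 did not have the highest Gadd45a. Healthy replicate 6 had the lowest total and the highest Gadd45a, and healthy replicate 3 had the highest Gadd45b without the highest total. Replicates 4 and 5 labelled control had the lowest totals of their group and the highest Gadd45a. The part of handling in either result was not tested.

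**Figure D4:**
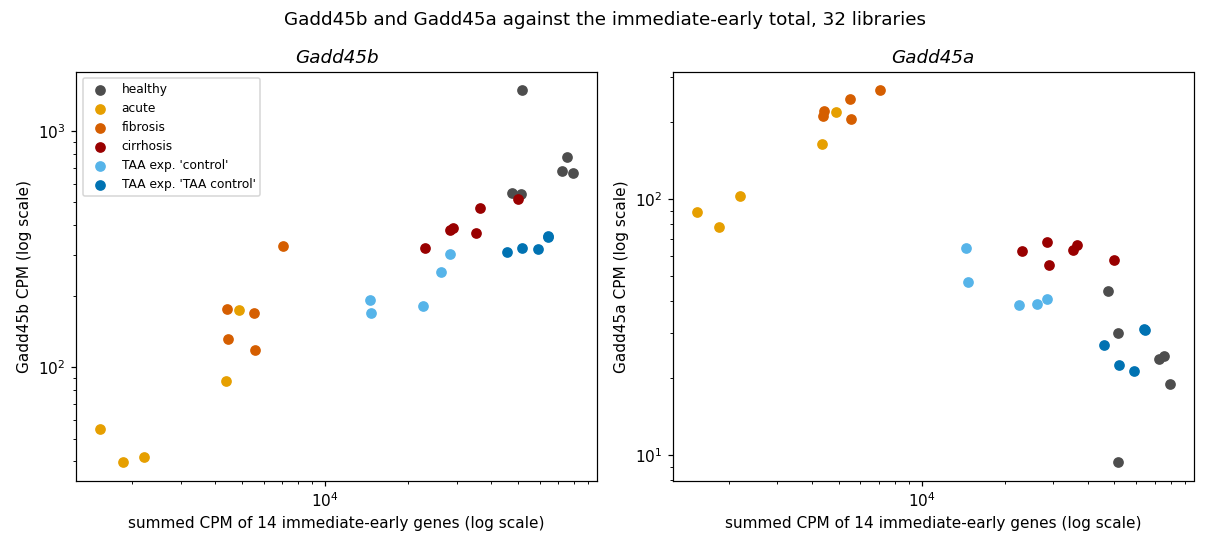
Gadd45b (left) and Gadd45a (right) CPM against the summed CPM of 14 immediate-early and dissociation-stress genes, both on log axes, in all 32 libraries coloured by group. Acute and fibrosis libraries lie at or below 7062 CPM of the immediate-early total and all others at or above 14543, and Gadd45a is at or above 77.4 CPM in the former and at or below 67.8 in the latter, whereas Gadd45b overlaps between them.

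The genes on which CDK inhibitors act did not move in 1 direction. In acute, fibrosis and cirrhosis 35.5%, 35.3% and 27.1% of all genes were higher than in healthy, and 37.9%, 34.9% and 24.7% lower. Of 9 G1 and S phase CDKs and cyclins, 2 rose and 3 fell in each comparison with healthy. The D-type cyclins, partners of CDK4 and CDK6, were among those that fell in acute and fibrosis. Ccnd1 went from a mean of 121 CPM in healthy to 17.5 in acute (-2.75 ± 0.21) and 11.6 in fibrosis (-3.34 ± 0.23), and Ccnd3 from 118 to 14.6 (-2.88 ± 0.26) and 15.5 (-2.75 ± 0.26). Ccne2, coding for cyclin E2, rose by 1.75 ± 0.41 in acute. In cirrhosis Ccnd1 was back at a mean of 125 CPM, 3.46 ± 0.23 above fibrosis. Ccnd3 was still lower in cirrhosis than in healthy, at a mean of 40.4 CPM (-1.46 ± 0.23). Of 4 other inhibitors and pocket proteins in the files, Rbl1 (p107) rose by 1.90 ± 0.35 in acute and 1.70 ± 0.36 in fibrosis, and Rb1 rose by 1.15 ± 0.29 and 0.95 ± 0.29. E2f2 was at a mean of 0.159 CPM in acute against 6.85 in healthy, and with so low an acute level no test is given. E2f5, which pairs with pocket proteins to repress, rose by 2.06 ± 0.33 in acute. In all, 4 of 7 tested E2F factors rose and 3 fell in acute and in fibrosis.

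Proliferation genes moved in both directions. Of 14 in the files, 1 rose and 7 fell in acute, 2 rose and 7 fell in fibrosis, and 5 rose and 2 fell in cirrhosis, each against healthy, where 37.9%, 34.9% and 24.7% of all genes were lower and 35.5%, 35.3% and 27.1% higher. Mcm2, of the replicative helicase, fell from 123 to 30.1 CPM in acute (-1.90 ± 0.23). Mki67 rose from 6.62 to 20.6 CPM in cirrhosis (1.68 ± 0.41) with overlapping groups. Among 8 regulators of p21 and p27 levels, Myc, a repressor of Cdkn1a and Cdkn2b, was higher by 2.47 ± 0.31 in acute and 2.64 ± 0.30 in fibrosis, and Klf4, an activator of Cdkn1a, was lower by -2.76 ± 0.45 and -2.05 ± 0.41. In all, 4 of the 8 rose and 1 fell in either stage, and 3 rose in cirrhosis.

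Compared with acute injury, 5 members were higher in fibrosis and none lower, where 11% of all genes were called, 10.2% of the genes tested being higher and 0.732% lower. Of these 5, Cdkn2a needed the fibrosis libraries to pass the low-count filter, so its call is no support. The others were Cdkn2b (0.80 ± 0.20, adjusted p = 0.0196), Cdkn2c (0.83 ± 0.24, adjusted p = 0.0344), Gadd45a (1.01 ± 0.26, adjusted p = 0.0215) and Gadd45b (1.46 ± 0.41, adjusted p = 0.0304). The acute and fibrosis groups overlapped for all 5 but Cdkn2a, and 17.3% of all genes did not overlap (6.32% higher, 11% lower). Without acute replicate 1 only Cdkn2a was called, and with 1 fit over the 4 CCl4 groups 2 members were called. The Cdkn2c call was lost in 8 of the 10 fits that left out a library (adjusted p from 0.0578 with fibrosis replicate 17 left out to 0.078 with fibrosis replicate 12 left out) and without the low-count filter (adjusted p = 0.0519). The expression of Gadd45b changed 2.74-fold here, with an adjusted p-value of 0.0607 by the edgeR quasi-likelihood test. Of all the listed pathway genes, Perp, a p53 target in cell junctions, changed most between these groups. Its mean was 0.295 CPM in acute and 3.07 in fibrosis, and with so low an acute level no test is given. Hepatocyte markers were higher in fibrosis than in acute for 8 of 8 genes, and stellate cell and fibroblast markers for 6 of 9. The part of these markers in the differences was not tested.

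Cirrhosis differed from fibrosis in 7 of 9 members, 3 higher and 4 lower, beside 63.8% of all genes (34.3% higher, 29.5% lower). Among the lower was Cdkn2a, which needed the fibrosis libraries to pass the low-count filter. Cirrhosis differed from acute injury in 6 of 9, 3 higher and 3 lower, beside 69.3% (37.5% higher, 31.8% lower). Cirrhosis did not overlap with fibrosis for 5 of the 9, beside 63.2% of all genes (31.8% higher, 31.3% lower), nor with acute injury for 7 of the 9, beside 65.6% (33.9% higher, 31.7% lower). Higher in cirrhosis in both comparisons were Cdkn1c, Cdkn2c and Gadd45b, and lower in both were Cdkn2b, Mdm2 and Gadd45a. Against acute injury Gadd45b was 5.90-fold higher (2.56 ± 0.34, adjusted p = 1.74e-05), Cdkn2c 4.36-fold higher (2.12 ± 0.23, adjusted p = 2.24e-06) and Cdkn1c 3.54-fold higher (1.83 ± 0.32, adjusted p = 0.000189). Cdkn2b was 7.18-fold lower (-2.84 ± 0.30, adjusted p = 2.10e-06), Mdm2 2.09-fold lower (-1.06 ± 0.16, adjusted p = 5.52e-05) and Gadd45a 1.98-fold lower (-0.99 ± 0.23, adjusted p = 0.00167). The 2 comparisons share the cirrhotic libraries. Of the 27 other p53 targets, 5 were higher and 13 lower in cirrhosis than in fibrosis, among the latter Aen (-4.20 ± 0.16), while Btg2 was higher (4.27 ± 0.15). LSEC markers were higher in cirrhosis than in fibrosis for 9 of 11 genes, and stellate cell and fibroblast markers for 7 of 10.

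The order of the group means over the CCl4 experiment differed between the genes. Cdkn2b, from low to high, went healthy, cirrhosis, acute, fibrosis, and so did Gadd45a, all neighbours passing the call rule, the step from acute to fibrosis not without acute replicate 1. Gadd45b went acute, fibrosis, cirrhosis, healthy, and its neighbours passed it too, with overlap up to cirrhosis and with the step from acute to fibrosis lost in 6 of the 10 fits without a library. For Mdm2 healthy and cirrhosis, and fibrosis and acute, did not differ beyond their spread. For Cdkn1c only acute and fibrosis did not. For Cdkn2c healthy and cirrhosis did not, and the step from acute to fibrosis was called only in part of the fits, as given above. Cdkn2a was lowest in healthy and highest in fibrosis, with acute and cirrhosis between them and not called apart. In Cdkn1a the step from cirrhosis to healthy was the only neighbouring one called, and in Cdkn1b there was none.

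In the TAA experiment, 2 members were higher and 2 lower in the libraries labelled TAA control than in those labelled control, of 8 tested, beside 27.6% of all genes (12.7% of the genes tested higher and 14.9% lower). Cdkn2b was at 4.68, 6.01, 7.61, 9.23 and 12.8 CPM in replicates 1 to 5 of the group labelled control. It was at 0.999, 1.40, 0.919, 1.43 and 0.989 CPM in replicates 10, 12, 13, 14 and 15 of those labelled TAA control, every one of them lower (-2.77 ± 0.38, adjusted p = 0.000225). Gadd45a was also lower there, with 27, 22.5, 21.3, 30.8 and 31.1 CPM against 38.5, 39.1, 40.7, 47.4 and 64.6 (-0.81 ± 0.16, adjusted p = 0.00197). Cdkn1c was higher, with 13.3, 11, 12.3, 10.3 and 11.7 CPM against 7.92, 4.85, 4.07, 4.15 and 3.38 (1.33 ± 0.18, adjusted p = 0.000251). None of these 3 overlapped between the groups, nor did Cdkn1b and Gadd45b, while 35.6% of all genes did not overlap (19.2% higher, 16.4% lower). Gadd45b was at 308, 322, 316, 357 and 362 CPM against 183, 255, 303, 170.0 and 192, a difference of 0.61 ± 0.15 (adjusted p = 0.00693) that lay just above the fold threshold. The Gadd45b call was lost with replicates 14 and 15, the most alike libraries, merged into 1 (0.58), and without replicate 1, 4 or 5 labelled control or replicate 14 or 15 labelled TAA control (0.53 to 0.58).

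The other members of the TAA experiment differed less. Cdkn1b was higher by 0.52 ± 0.09 in the group labelled TAA control (adjusted p = 0.000904), with 56.7 to 61.1 CPM against 34 to 49.1, under the fold threshold. Differences of -0.09 (95% CI -0.37 to 0.19) for Cdkn1a, -0.26 (95% CI -0.50 to -0.01) for Mdm2 and -0.56 (95% CI -1.17 to 0.05) for Cdkn2c were not called. Cdkn2a, not tested, had 0 to 4 counts in libraries labelled TAA control and 8 to 38 in those labelled control. Of the 27 other p53 targets 6 were higher and 6 lower, Btg2 among the higher (1.97 ± 0.25), where 12.7% of all genes were higher and 14.9% lower. Of 14 proliferation genes 10 were lower, Top2a by -1.51 ± 0.45, with overlapping groups. The immediate-early total was 45655 to 64606 CPM in the group labelled TAA control and 14543 to 28454 in that labelled control, and stellate cell and fibroblast markers summed to 331 to 523 and 2005 to 4957 CPM. The part of these markers in the differences of the members was not tested. The cirrhosis minus healthy values of the CCl4 experiment were 2.40 for Cdkn2b, 1.44 for Gadd45a, -1.39 for Cdkn1c and -0.86 for Gadd45b. For the other tested members they were -1.12 for Cdkn1a, which was called, and 0.19 for Cdkn1b, 0.27 for Cdkn2c and 0.28 for Mdm2, which were not. Cdkn1a and Cdkn1b thus had the same sign in both comparisons, and all other tested members had opposite signs. The 95% CI spanned both signs for Cdkn1a in the TAA experiment and for Cdkn1b in cirrhosis (-0.29 to 0.67).

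The genes most like each member over the 22 CCl4 libraries were found by Pearson correlation of log2 CPM, which mainly follows the differences between the groups since the libraries fall into groups. Cdkn2b was most like Bcar3 (r = 0.991) and Map1b (r = 0.990). Gadd45b was most like its family member Gadd45g (r = 0.967) and Arid5a (r = 0.959). For Cdkn1c these were Mfge8 (r = 0.978) and Osbp2 (r = 0.978), for Mdm2 Nasp (r = 0.976) and Atf1 (r = 0.969), and for Gadd45a Tcf4 (r = 0.973) and Acsl3 (r = 0.972). Cdkn1a was most like Fbrs (r = 0.963) and Derl1 (r = 0.960), and Cdkn2c most like Atp2b4 (r = 0.955) and Fgfr3 (r = 0.955). The weakest likeness was that of Cdkn2a, with Sulf1 (r = 0.835) and Synpo (r = 0.825), and of Cdkn1b, with Zfp36l2 (r = 0.820) and Zbtb33 (r = 0.815). Within groups, after subtraction of the group means, r was 0.837 for Cdkn2b with Bcar3, 0.821 for Gadd45b with Gadd45g and 0.356 for Cdkn2a with Synpo.

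Markers of other liver cells moved with the groups as well. In acute libraries the summed hepatocyte markers were 147 to 947 CPM and in fibrosis 1314 to 5319.6, compared with 1326 to 29532 in healthy and 3012 to 15071 in cirrhosis. Kupffer cell and macrophage markers summed to 79.4 to 236 CPM in acute, 33.6 to 214 in fibrosis, 342 to 3638 in healthy and 797 to 2909.6 in cirrhosis. Stellate cell and fibroblast markers rose in 8 of 10 genes in cirrhosis compared with healthy (643 to 2052 against 294 to 781 CPM), and their acute total of 1336 to 2162 CPM was mainly Reln, with a mean of 1696 CPM, while 6 of the 9 tested were lower. Cholangiocyte, lymphocyte and neutrophil markers stayed at or below 109, 379 and 121 CPM in every library. No marker of these lists was at 0 in every library of a CCl4 group. Which cells of a preparation carried the transcripts of the members was not tested.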

How the data were processed

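RNA of LSECs from 32 rat libraries was sequenced by the authors (poly(A), strand-specific kit, Illumina). Per the labels and methods, cells were isolated by perfusion, digestion and an iodixanol gradient some days after the last toxicant, and reads were trimmed, mapped to Rnor_6.0 with STAR and quantified with RSEM. Tool versions were not given in the sources used here. The deposited values are RSEM expected counts (estimated counts) per gene and library, not normalized and not pooled, of which 10.3% to 12.4% of genes per library are not whole numbers. RSEM divides reads that fit several genes.

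Expected counts were rounded. Each of 7 comparisons was fitted in limma 3.58.1 (voom, TMM and filterByExpr from edgeR 4.0.16, R 4.3.3) on the libraries of its 2 groups without covariates, as the authors' methods name limma and TMM. Their call used an unadjusted p-value, and the Benjamini-Hochberg value was used here. Levels are CPM over 32 libraries, with a pseudocount of 0.5 on the log2 scale. DESeq2 1.42.0 was an alternative, and Python 3.11.15 and matplotlib 3.10.9 drew the figures. Fits were run on simulated counts with far fewer changed genes than these data, balanced in direction and with the same spread parameter for all genes. That setting checks the code and cannot vouch for the normalization or the calls here. Groups come from the labels. The study describes the libraries as separate cell isolations, and p-values measure the spread between them. In the TAA experiment, replicates 14 and 15 labelled TAA control differed by more than sampling noise but less than other pairs (chi-square per degree of freedom 2.96, next lowest 23.6) and were kept as 2. The p-values and overlaps of that comparison take them as separate isolations, which was not tested. With the 2 merged, Gadd45b was the only member whose call changed.

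The members and gene lists were chosen with earlier results of these data known. Genes named are the members, Mdm4, up to 3 called genes of largest change per list and comparison, and 2 genes most like each member with a mean log2 CPM of at least 3. Stab2, Cdh5 and Reln were named after their values were seen. Of the listed genes Bbc3, Chek1, Cdkn2d, Ccnb2, Pecam1, Col1a2 and Hspa8 (held by 2 entries) were not analysed here. Promoter sequences come from RefSeq (GRCr8) and matched 8 of 9 members. Totals differed by less than 2-fold between libraries, so depth limits mainly Cdkn2a and Cdkn2c. The values of 1 listed gene are not reported here.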

Additional observations from a re-analysis of the deposited data

Results flagged for a closer look

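In groups of 5 or 6 libraries, Dixon's test of the most extreme value was applied to 66 sets of values, of which 3.3 are expected to pass by chance, and 3 did. Gadd45b in healthy replicate 3 was 1490.3 CPM, with the next library at 776 CPM, and without this library the fall of Gadd45b in acute injury, fibrosis and cirrhosis passed the call rule as before. The total of acute replicate 4 was 36.9 M expected counts, the next being 33.0 M. In the group labelled control of the TAA experiment, replicate 5 had 32.6 M, the next 28.5 M.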

How the results depend on the processing

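Over 681 member results under other settings, 655 kept their direction and call, 13 passed the call rule only there, 10 passed it no longer and 3 reversed. When a library was left out, 622 of 651 kept both, 3 passed newly, 21 no longer and 5 reversed. The comparison of fibrosis with acute injury depended most on the processing. Its 5 called members became 2 with 1 fit over the CCl4 groups and 1 to 5 without a library (1 without acute replicate 1, 3 without acute replicates 2 or 4 or fibrosis replicates 13 or 15). Its 13 called genes of the lists became 21 without a fold threshold, 5 with the single fit and 5 to 18 without a library. Its 1529 called genes became 2826, 2346 with weights per library, 746 with the single fit and 1011 to 2166 without a library. In the TAA experiment 7139 in place of 3970 genes were called without a fold threshold, and leaving out a library gave 3 to 6 members in place of 4. The Gadd45b difference there was below the fold threshold by edgeR (0.58), DESeq2 (0.56), library-size scaling (0.58) and with replicates 14 and 15 as 1 library (0.58). Reversed signs concerned differences that were not called. Cdkn1b was 0.084 in acute and 0.17 in fibrosis against healthy with library-size scaling. In fibrosis against acute, Cdkn1a was 0.060 and Mdm2 0.053 without acute replicate 8, and Cdkn1a ranged from -0.16 to 0.060 when a library was left out. Cdkn2a in cirrhosis against acute was -0.19 with the replicate block, -0.12 without cirrhosis replicate 6, and -0.14 and -0.07 without acute replicates 1 and 2, with a highest value of 0.41 without a library. The cause was not tested. Library-size scaling moved the median log2 fold change of all genes to 0.32, 0.37 and 0.42 against healthy, from -0.09, -0.03 and 0.07. With a pseudocount of 2, mean log2 levels moved by more than the replicate SD for Cdkn1c in acute (2.63), fibrosis (2.77) and TAA control (3.78) libraries, for Cdkn2a in all groups (1.06, 1.20, 1.63, 1.22, 1.36 and 1.04, in the order healthy, acute, fibrosis, cirrhosis, control and TAA control), for Cdkn2b in healthy (1.64) and TAA control (1.65), and for Cdkn2c in healthy (2.62), acute (1.65), fibrosis (1.95), cirrhosis (2.80) and TAA control (2.73). Deviations of same-numbered libraries correlated from -0.24 to 0.29 in cirrhosis against healthy and from 0.03 to 0.19 in acute against healthy. In cirrhosis against acute they correlated from -0.09 to 0.09. The own number gave the highest correlation for 2 of 4 pairs in acute against healthy and for none elsewhere. The numbers were not taken as pairs. A replicate block gave 10924, 7275 and 10180 called genes in acute against healthy, cirrhosis against healthy and cirrhosis against acute, compared with 10502, 7660 and 10399. Depth limits Cdkn2a, which held 15 counts over the healthy libraries.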
